A study of Homo sapiens with 72 samples.

Results

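CXCL8 and 7 other genes for secreted chemokines and cytokines, CXCL1, CXCL2, CXCL3, CCL2, IL6, LIF and IL11, were followed across 72 wells of U2OS cells, a human osteosarcoma line. The 8 members were picked by name from the 60371 genes of the deposited tables, through the symbol of each Ensembl identifier. CXCL8 came first because its level with 10000 nM nilotinib was over 100-fold that of the DMSO wells, so every value of that contrast is given as a description, with no test. In the same contrast CXCL8 lay at 342-fold over the DMSO median, while the next members, CXCL3 at 51.9-fold and CCL2 at 21.4-fold, lay under 100-fold.

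Population RNA-seq was made from poly(A) RNA of cells grown in 24-well plates and collected 12 h after compound addition. Of the wells, 18 received DMSO and the other 54 were split over 6 compounds, 3 doses (100 nM, 1000 nM and 10000 nM) and 3 replicates. Tested were homoharringtonine, which blocks the elongation step of translation; triptolide, which blocks transcription by RNA polymerase II; nilotinib, an inhibitor of the BCR-ABL tyrosine kinase; pyrazolanthrone, an inhibitor of the JNK kinases; MK-2206, an inhibitor of the AKT kinases; and miglitol, an inhibitor of alpha-glucosidases. All wells are of 1 cell line at 1 time point, and nothing in the sources used here says that wells of a group came from separate cultures, so each p-value measures only the spread between these wells.

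The expected counts of a library summed to between 0.0708 mil and 68.3 mil, with a median of 38.4 mil. Libraries under 10 mil were triptolide 100 nM replicate 2 (0.0708 mil), DMSO replicate 10 (0.460 mil) and triptolide 1000 nM replicate 1 (9.63 mil). No library matched another of its group within sampling noise. Of 9 markers of the osteoblast and mesenchymal lineage, 5 had a mean of at least 1 CPM (counts scaled to a library sum of 1 mil) in the DMSO wells. The summed level of the 9 was 5136 to 6451 CPM, whereas IBSP and SP7, also on that list, were near 0.

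Chemokines are small secreted proteins that draw leukocytes along a gradient. CXCL8 (interleukin 8) and its relatives CXCL1, CXCL2 and CXCL3 attract neutrophils through the receptors CXCR1 and CXCR2, and CCL2 attracts monocytes through CCR2. IL6, LIF and IL11 belong to 1 cytokine family, whose receptors share the subunit IL6ST (gp130) and signal through JAK kinases and STAT3. Transcription of such genes is commonly driven by NF-kB and AP-1 factors, and their mRNAs are typically short-lived, with AU-rich elements in the 3′ untranslated region that speed their decay.

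The promoters of 6 members are shown because the 4 neutrophil chemokines sit in 1 gene cluster and their proximal promoters can be read side by side. The 150 bases before the RefSeq transcription start are printed 5′ to 3′ on the strand of the gene (RefSeq sequence, build GRCh38.p14), and capitals mark matches to the NF-kB pattern GGNNTTTCC or the AP-1 pattern TGANTCA. The windows are chr4:73740419-73740568 for CXCL8 and chr4:73869243-73869392 for CXCL1 on the plus strand, chr4:74099196-74099345 for CXCL2 and chr4:74038690-74038839 for CXCL3 on the minus strand, chr7:22727050-22727199 for IL6 on the plus strand, and chr19:55370464-55370613 for IL11 on the minus strand.
CXCL8: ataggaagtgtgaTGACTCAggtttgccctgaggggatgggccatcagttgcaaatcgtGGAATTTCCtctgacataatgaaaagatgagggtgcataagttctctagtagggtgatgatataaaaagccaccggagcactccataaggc
CXCL1: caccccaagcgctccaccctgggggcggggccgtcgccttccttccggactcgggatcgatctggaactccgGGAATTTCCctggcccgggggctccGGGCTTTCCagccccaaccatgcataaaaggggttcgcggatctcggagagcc
CXCL2: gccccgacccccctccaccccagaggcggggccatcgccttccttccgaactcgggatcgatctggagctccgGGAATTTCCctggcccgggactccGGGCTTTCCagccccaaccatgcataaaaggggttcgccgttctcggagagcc
CXCL3: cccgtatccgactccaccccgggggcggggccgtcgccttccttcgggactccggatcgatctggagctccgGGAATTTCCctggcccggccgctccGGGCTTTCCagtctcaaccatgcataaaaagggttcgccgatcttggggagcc
IL6: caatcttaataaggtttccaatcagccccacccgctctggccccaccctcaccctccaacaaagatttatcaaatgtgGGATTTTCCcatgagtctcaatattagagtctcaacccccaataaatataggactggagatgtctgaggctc
IL11: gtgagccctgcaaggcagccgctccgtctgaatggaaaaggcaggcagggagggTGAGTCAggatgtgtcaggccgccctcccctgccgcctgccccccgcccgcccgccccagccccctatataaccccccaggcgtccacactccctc

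The NF-kB pattern was found on either strand in 5 of these 6 promoters when 300 bases (250 before the start and 50 after) were searched, against 6.26% of 35116 RefSeq promoters of the same length. CXCL8 held it once, starting at -91 from the transcription start, and IL6 once, at -72. CXCL1 and CXCL3 held it at -78 and -53, and CXCL2 at -77 and -53, the nearer copy reading GGGCTTTCC in all 3 genes. The AP-1 pattern, which reads alike on both strands, was found in CXCL8 at -137 and in IL11 at -96, against 7.71% of promoters. The C/EBP pattern TTNNGNAA was found in CXCL2 and IL6, against 36.8% of promoters, and TATAAA in CXCL8 alone, against 11.5%. These matches describe letters in a window and do not show that a factor bound there.

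In GENCODE 44 (GRCh38), CXCL8 lies at chr4:73740519-73743716 and CXCL1 at chr4:73869393-73871308 on the plus strand, and CXCL3 at chr4:74036589-74038807 and CXCL2 at chr4:74097040-74099196 on the minus strand, a cluster spanning 359 kb. IL6 lies at chr7:22725884-22732002 and CCL2 at chr17:34255274-34257208 on the plus strand, and IL11 at chr19:55364382-55370463 and LIF at chr22:30240453-30246759 on the minus strand. IL6 overlaps the antisense genes IL6-AS1 and STEAP1B, and LIF overlaps LIF-AS1 and LIF-AS2. The libraries were stranded, but the strand setting of the counting is not given in the sources used here. The pentamer ATTTA, the core of AU-rich elements, was counted in the 3′ untranslated region of each member's canonical transcript. CCL2 held it 1 time, CXCL1 and IL6 6 times, CXCL3 and LIF 7 times, CXCL8 and IL11 9 times and CXCL2 10 times, while the median over 19461 protein-coding genes was 2. Per kb the members ran from 2.19 in LIF and 2.66 in CCL2 to 14.1 in IL6, beside a median of 1.51 over those genes.

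In the 18 DMSO wells the members differed widely in level. Per length, IL11, which supports megakaryocyte growth and acts on bone and stromal cells, stood highest with a median of 18 TPM (reads per base of transcript, rescaled so that every library has the same total), followed by LIF, the leukemia inhibitory factor, at 9.73 TPM. CCL2 had a median of 3.12 TPM, CXCL8 of 0.970 TPM, CXCL3 of 0.565 TPM and IL6 of 0.475 TPM. Among the 24030 genes with a median above 0 TPM in DMSO, IL11 lay at the 72.6th percentile and IL6 at the 31.9th. CXCL8, CXCL3 and IL6 overlapped one another in their ranges over the wells, while IL11 and LIF did so only through the highest LIF and lowest IL11 wells.

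**Figure D1:**
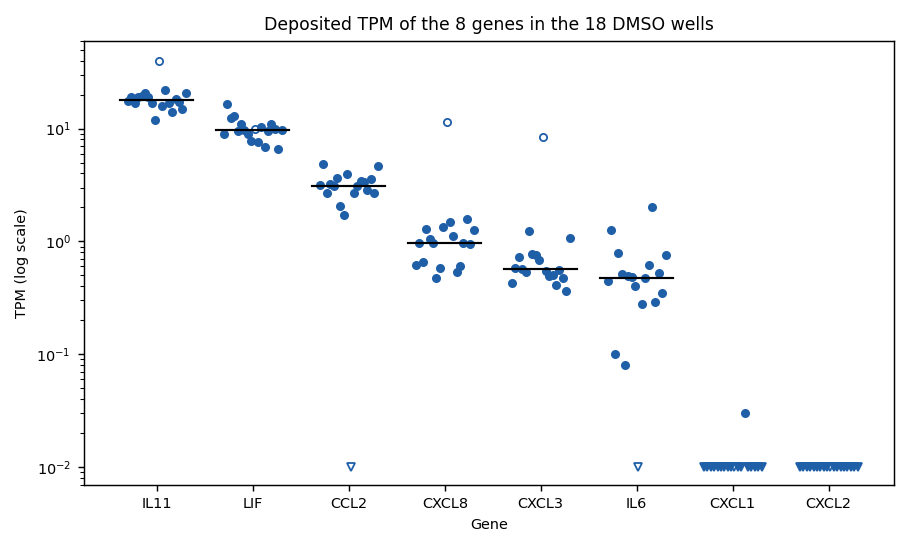
Level of each member in the 18 DMSO wells, in TPM on a log axis. Each point is 1 well, open symbols are libraries under 10 mil, triangles at the bottom stand for wells at 0 and the black line is the median. IL11 (18 TPM) and LIF (9.73 TPM) stand above the other members, and CXCL1 and CXCL2 have a median of 0.

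CXCL1 and CXCL2 were below detection in these libraries. CXCL1 had at most 7 counts in any of 72 wells and 30 counts in all, CXCL2 at most 6 counts and 28 in all, and neither reached 10 counts in a single well. CXCL1 stood at 0 in 64 wells and CXCL2 in 62. The few counts lay mostly with homoharringtonine: CXCL1 had 5, 7 and 3 counts in the wells of 1000 nM and 2, 6 and 4 in those of 10000 nM, and CXCL2 had 2, 6 and 2 and then 5, 3 and 4. In DMSO 1 count of CXCL1 and none of CXCL2 was found among 672 mil counts. Summed over wells, the CXCL1 rate was 68.9 times that of DMSO at 1000 nM, with a 95% interval of 10.6 to 2903 that covers counting error only. Against a floor of 3 counts over the DMSO group, the CXCL2 rate was 15.3-fold at 1000 nM and 18.9-fold at 10000 nM, and with the counting error of both groups the lower 95% limits of its ratio were 10.3 and 13.1. Nilotinib at 10000 nM left CXCL1 without counts and CXCL2 with 2 and 1 counts in replicates 2 and 3. Both genes were removed by the filter on low counts and so entered no test; the other 6 members were tested in every comparison with DMSO.

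CXCL3 was detected although it resembles CXCL1 and CXCL2. Of the 50-base windows along its transcript 5.26% were shared with CXCL2 or CXCL1, and the share was 5.33% for CXCL1 and 10.1% for CXCL2 with either relative. The expected counts of all 3 genes were exactly whole (no tolerance) in all 72 wells, which for CXCL1 and CXCL2 were mostly wells at 0. A read from a shared stretch cannot be assigned with certainty. Expected counts were not whole in 34 wells for LIF and in 17 wells for IL6.

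CXCL8 lay between 0.381 and 1.54 CPM in the 17 DMSO wells over 10 mil, with a median of 0.833 CPM and a mean of 0.895 ± 0.344 CPM (SD, n = 17). The shallow DMSO replicate 10 read 8.70 CPM, which is 4 counts. With 10000 nM nilotinib CXCL8 reached 389, 282 and 202 CPM in the 3 wells, a mean of 291 ± 93.8 CPM (SD, n = 3). All 3 wells were above every DMSO well, at 238-fold to 458-fold the DMSO median. For every member, folds over the DMSO median use the median of all 18 DMSO wells, 0.850 CPM for CXCL8, and not that of the deep wells. Each library sums the RNA of a whole well, so a change in the number of cells that express a gene and a change in RNA per cell cannot be told apart.

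At the lower doses of nilotinib CXCL8 did not pass the test, although 2 of the 3 wells of 1000 nM were above the deep DMSO wells. The wells of 100 nM read 1.76, 0.683 and 1.22 CPM, a log2 fold change of 0.46 ± 0.39 (SE), with an adjusted p of 0.503 by edgeR's quasi-likelihood test with Benjamini-Hochberg adjustment over all genes tested. Those of 1000 nM read 2.66, 1.002 and 2.14 CPM, and the change was 1.13 ± 0.35 (95% interval 0.40 to 1.86, adjusted p = 0.0786, edgeR). Replicates 1 and 3 of 1000 nM were above all deep DMSO wells and replicate 2 was within their range. Without replicate 2 the change was 1.41 (adjusted p = 0.0432, edgeR), and without the libraries under 10 mil it was 1.17 (adjusted p = 0.0249, edgeR), so the call at this dose rested on those wells. A gene was called here when its adjusted p was under 0.05 and its log2 fold change was above 1 or below -1.

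Homoharringtonine raised CXCL8 at every dose. The wells read 64.5, 35.1 and 30.6 CPM at 100 nM, 45.4, 64.0 and 82.7 CPM at 1000 nM and 66.4, 79.6 and 80.2 CPM at 10000 nM. All 9 wells were above all DMSO wells. The log2 fold changes against DMSO were 5.77 ± 0.25 (adjusted p = 6.99e-16), 6.25 ± 0.24 (adjusted p = 1.42e-16) and 6.39 ± 0.23 (adjusted p = 2.44e-17, all edgeR). The doses overlapped in their wells, and neither step passed: 1000 nM against 100 nM gave 0.46 (adjusted p = 0.362) and 10000 nM against 1000 nM gave 0.19 (adjusted p = 0.7, both edgeR).

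With triptolide CXCL8 stayed near its DMSO level relative to the other transcripts. The wells over 10 mil read 0.696 and 0.761 CPM at 100 nM, 0.373 and 1.34 CPM at 1000 nM and 0.777, 0.906 and 0.878 CPM at 10000 nM. Triptolide 100 nM replicate 2 had no CXCL8 count, but a library of 0.0708 mil can hardly show a gene at this level, and triptolide 1000 nM replicate 1 had 4 counts. Against DMSO it changed by -0.02 (95% interval -1.07 to 1.03), 0.30 (-0.61 to 1.22) and 0.42 (-0.34 to 1.18), with adjusted p of 0.979, 0.567 and 0.317 by edgeR. These folds are relative to the bulk of the library: scaled instead to the 13 mitochondrial mRNAs, the change of CXCL8 was -1.64 at 100 nM, -2.27 at 1000 nM and -2.29 at 10000 nM, each called (adjusted p = 0.00552, 8.26e-05 and 1.16e-05, edgeR). In a direct comparison that used no DMSO well, CXCL8 was higher with homoharringtonine than with triptolide by 5.71 ± 0.40, 5.86 ± 0.54 and 5.88 ± 0.13 on the log2 scale at the 3 doses (adjusted p = 2.63e-09, 2.85e-05 and 3.14e-11, edgeR).

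Pyrazolanthrone gave a small rise of CXCL8 at its highest dose. At 10000 nM the wells read 2.07, 2.39 and 1.74 CPM, all above the 17 deep DMSO wells, and the log2 fold change was 1.16 ± 0.34 (adjusted p = 0.034, edgeR). The call was lost when any 1 of the 3 wells was left out (adjusted p = 0.0826 to 0.231, edgeR) and with DESeq2 (adjusted p = 0.0678). At 100 nM and 1000 nM the changes were 0.31 and 0.34, and neither passed. With MK-2206 the group means of CXCL8 were 0.870 to 1.25 CPM and with miglitol 1.03 to 1.37 CPM, and no dose of either passed. Ordered by mean level over wells above 10 mil, CXCL8 ran from 10000 nM nilotinib through the 3 doses of homoharringtonine to pyrazolanthrone at 10000 nM. The wells of the 3 homoharringtonine doses overlapped in that order, and from pyrazolanthrone at 10000 nM downward each group overlapped the next except for triptolide at 10000 nM and 100 nM.

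**Figure D2:**
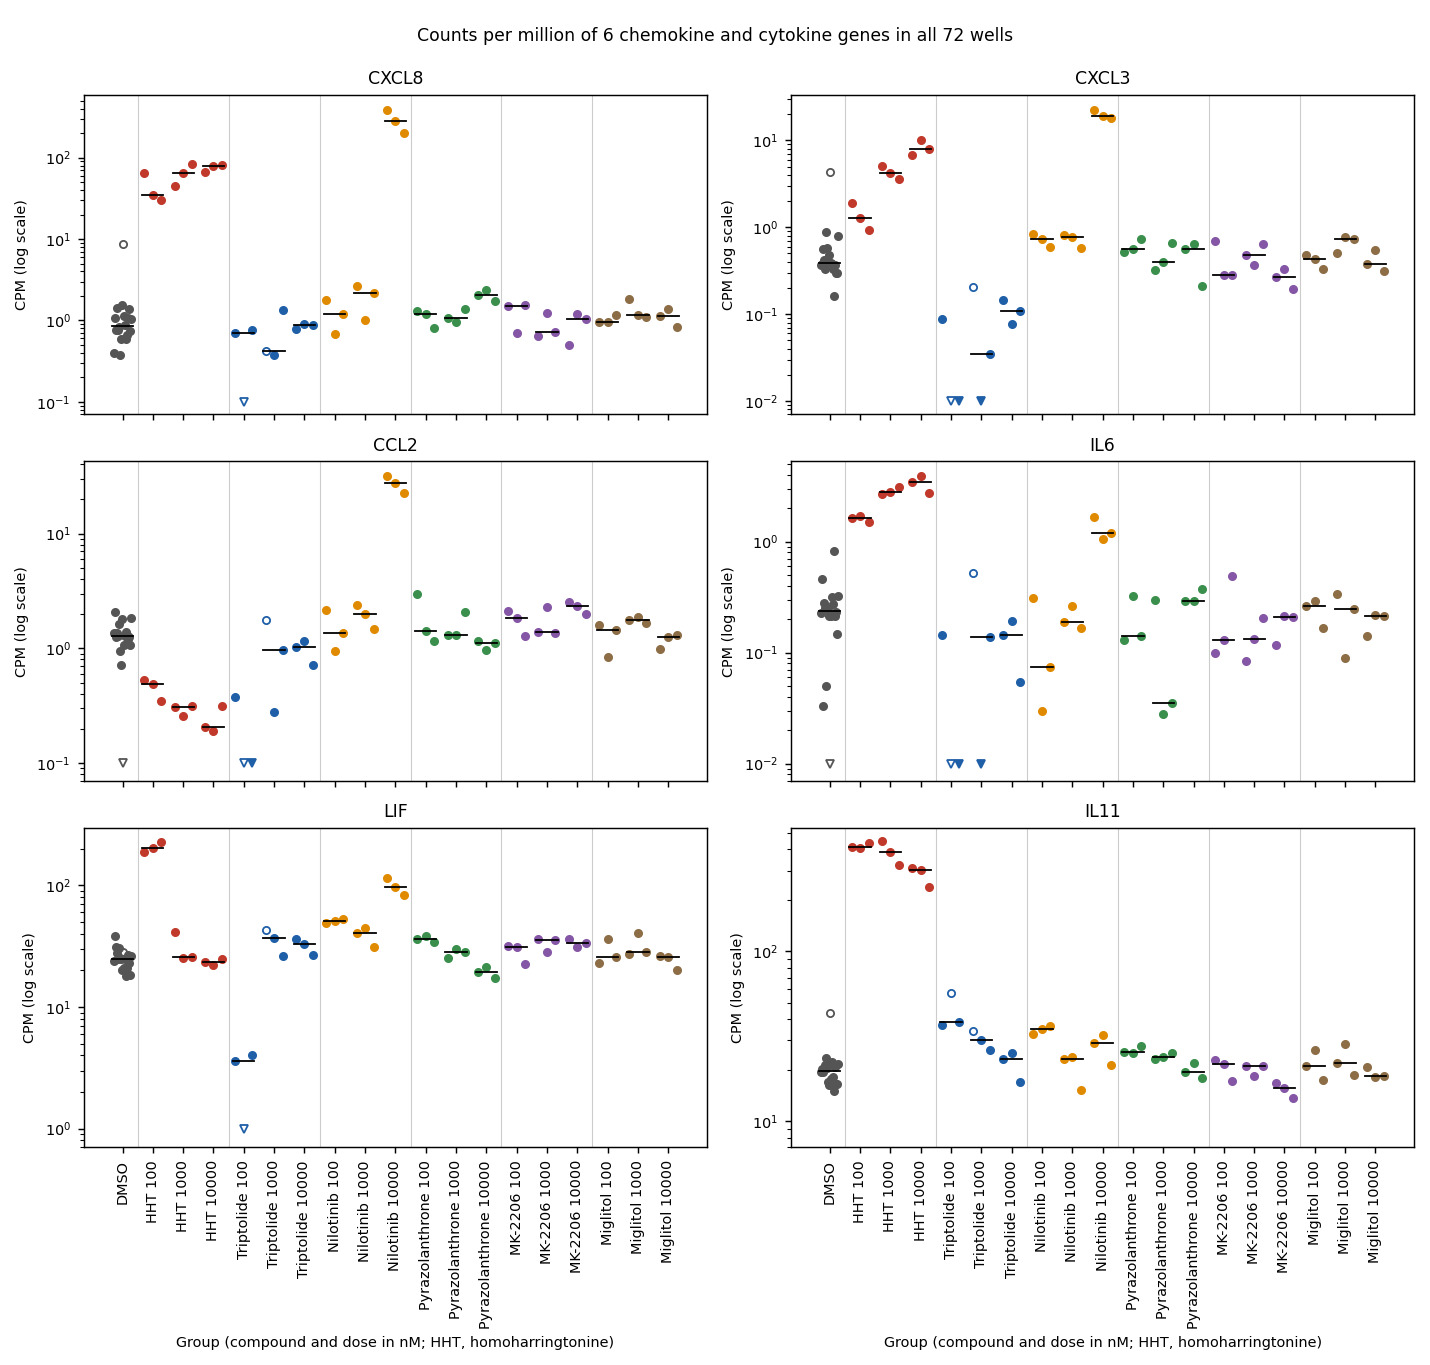
Level of the members in each well, in CPM on a log axis, by compound and dose. Each point is 1 well, open symbols are libraries under 10 mil, triangles at the bottom stand for wells at 0 and the black lines are group medians. CXCL8 stands at 202 to 389 CPM with 10000 nM nilotinib and at 30.6 to 82.7 CPM with homoharringtonine, above all DMSO wells.

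CXCL3, the member of the neutrophil chemokine cluster that was detected beside CXCL8, had a range of 0.163 to 0.884 CPM in the deep DMSO wells, with a median of 0.379 CPM. It read 22.7, 18.9 and 18.1 CPM with 10000 nM nilotinib, 51.9-fold over the DMSO median. With homoharringtonine the wells read 1.92, 1.29 and 0.942 CPM at 100 nM, 5.02, 4.23 and 3.61 CPM at 1000 nM and 6.75, 10.2 and 7.98 CPM at 10000 nM. Every one of these wells was above the deep DMSO wells, and the wells of the 3 doses did not overlap. Log2 fold changes against DMSO were 1.83 ± 0.31 (adjusted p = 1.7e-05), 3.39 ± 0.26 (adjusted p = 3.98e-11) and 4.25 ± 0.24 (adjusted p = 8.67e-14, all edgeR). The step from 100 nM to 1000 nM was 1.53 ± 0.29 (adjusted p = 0.0126, edgeR), and was lost without homoharringtonine 1000 nM replicate 2 (adjusted p = 0.0538) or 100 nM replicate 2 (adjusted p = 0.0678). The step from 1000 nM to 10000 nM was 0.91 (adjusted p = 0.0799, edgeR), but 1.03 without homoharringtonine 1000 nM replicate 1 (adjusted p = 0.0304).

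Triptolide moved CXCL3 the other way. The wells held 3, 0 and 0 counts at 100 nM, 2, 0 and 2 at 1000 nM and 5, 3 and 4 at 10000 nM. The log2 fold changes were -2.42 ± 0.78 (adjusted p = 0.0101), -2.46 ± 0.73 (adjusted p = 0.00451) and -1.48 ± 0.49 (adjusted p = 0.00902, all edgeR). With so few counts each call rested on 1 well: it was lost without replicate 3 at 100 nM (adjusted p = 0.0765), without replicate 3 at 1000 nM (adjusted p = 0.105) and without replicate 2 at 10000 nM (adjusted p = 0.0547, all edgeR). The call at 100 nM was also lost with DESeq2 (-1.67, adjusted p = 0.12). That at 1000 nM was lost with the replicate block, which kept fewer DMSO wells (-2.38, adjusted p = 0.143, edgeR). Without the libraries under 10 mil the changes were -2.38 at 100 nM and -3.35 at 1000 nM. Homoharringtonine exceeded triptolide in CXCL3 by 4.13, 5.84 and 5.63 on the log2 scale at the 3 doses (adjusted p = 6.47e-05, 9.32e-05 and 7.17e-09, edgeR). With nilotinib at 100 nM and 1000 nM CXCL3 differed from DMSO by 0.77 and 0.76 on the log2 scale, and neither passed (adjusted p = 0.179 and 0.273, edgeR).

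CCL2, the monocyte chemokine, went against the neutrophil chemokines with homoharringtonine. In the deep DMSO wells it lay between 0.720 and 2.09 CPM, with a median of 1.29 CPM, and DMSO replicate 10 had no count. Homoharringtonine wells read 0.527, 0.486 and 0.347 CPM at 100 nM, 0.309, 0.257 and 0.314 CPM at 1000 nM and 0.205, 0.191 and 0.317 CPM at 10000 nM. All 9 were below every deep DMSO well. The fall was -1.33 ± 0.27 (adjusted p = 0.000146), -2.04 ± 0.28 (adjusted p = 8.86e-07) and -2.41 ± 0.31 (adjusted p = 1.95e-07, all edgeR) on the log2 scale. Nilotinib at 10000 nM was the exception, where CCL2 read 31.9, 27.8 and 22.4 CPM, 21.4-fold over the DMSO median and above all DMSO wells.

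Triptolide gave a lower CCL2 level at 100 nM only, where the log2 fold change was -2.01 ± 0.47 (adjusted p = 0.000843, edgeR). The wells read 0.377, 0 and 0 CPM, and the first 0 is the library of 0.0708 mil, which can hardly show a gene at this level. At 1000 nM the wells read 1.77, 0.280 and 0.976 CPM, and at 10000 nM 1.04, 1.16 and 0.713 CPM. The changes there were 0.03 and 0.07 and did not pass, but turned to -2.48 and -2.69 when scaled to mitochondrial mRNAs. Homoharringtonine was lower than triptolide in CCL2 by -2.06 at 1000 nM (adjusted p = 0.016) and by -2.56 at 10000 nM (adjusted p = 1.47e-05, both edgeR). The first of these was lost without homoharringtonine 1000 nM replicate 2 (adjusted p = 0.0627), and under mitochondrial scaling the differences were 0.35 and 0.006. At 100 nM the difference was 0.60 (95% interval -0.74 to 1.93, adjusted p = 0.425, edgeR), and among the alternatives run it was called higher with homoharringtonine under mitochondrial scaling, at 2.21, and without triptolide replicate 1 (adjusted p = 0.0156), when both wells left had no CCL2 count. CCL2 read 2.56, 2.34 and 2.00 CPM in the wells of 10000 nM MK-2206, a change of 0.76 that did not pass (adjusted p = 0.0586, edgeR).

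IL6, a cytokine of the acute phase response, was scarce in DMSO at 0.0332 to 0.816 CPM over the deep wells, with a median of 0.245 CPM. With homoharringtonine it read 1.63, 1.69 and 1.49 CPM at 100 nM, 2.66, 2.77 and 3.12 CPM at 1000 nM and 3.42, 3.90 and 2.74 CPM at 10000 nM. All 9 wells were above all DMSO wells. The log2 fold changes were 2.84 ± 0.34 (adjusted p = 7.31e-08), 3.59 ± 0.31 (adjusted p = 2.79e-10) and 3.72 ± 0.30 (adjusted p = 8.22e-11, all edgeR). With 10000 nM nilotinib the wells read 1.68, 1.06 and 1.19 CPM, above all DMSO wells, or 5.51-fold the DMSO median on CPM and 7.05-fold on TPM. Triptolide left 8 counts or fewer in every well and no dose passed, but scaled to mitochondrial mRNAs the changes were -2.54, -2.39 and -3.13 and each was called (adjusted p = 0.00452, 0.00189 and 1.14e-05, edgeR). The differences between homoharringtonine and triptolide were 3.66, 3.59 and 4.11 on the log2 scale (adjusted p = 5.2e-05, 0.0018 and 2.84e-07, edgeR).

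LIF, which keeps mouse embryonic stem cells undifferentiated and acts on bone cells, was high at the lowest dose of homoharringtonine and near DMSO at the higher ones. It lay between 17.8 and 38.4 CPM in DMSO, with a mean of 25.1 ± 5.02 CPM (SD, n = 18). With 100 nM homoharringtonine the wells read 188, 204 and 226 CPM, a log2 fold change of 3.27 ± 0.13 (adjusted p = 1.92e-16, edgeR). At 1000 nM they read 41.2, 25.1 and 25.6 CPM and at 10000 nM 23.5, 22.3 and 24.8 CPM, within or next to the DMSO range. The changes there were 0.43 (adjusted p = 0.0299, under the fold required) and -0.04 (adjusted p = 0.807, both edgeR). The fall from 100 nM to 1000 nM was itself called, at -2.85 ± 0.24 (adjusted p = 0.000876, edgeR).

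Triptolide gave the reverse order of doses for LIF. The wells read 3.56, 0 and 3.99 CPM at 100 nM, where the 0 is the library of 0.0708 mil, and the change against DMSO was -2.40 ± 0.24 (adjusted p = 1.17e-08, edgeR). At 1000 nM they read 43.3, 36.6 and 26.1 CPM and at 10000 nM 35.9, 33.2 and 26.9 CPM, changes of 0.94 and 0.89 that passed on p but not on fold (adjusted p = 9.67e-06 and 6.81e-06, edgeR), and that turned to -1.51 and -1.92 under mitochondrial scaling. Without replicate 3 the change at 1000 nM was 1.08 and was called, and DESeq2 called both doses, at 1.14 and 1.06. The rise from 100 nM to 1000 nM was 3.29 ± 0.32 (adjusted p = 1.71e-06, edgeR) and 3.19 without the libraries under 10 mil. At 100 nM homoharringtonine exceeded triptolide in LIF by 5.59 (adjusted p = 2.55e-11, edgeR), and at 10000 nM it was lower by -1.02 (adjusted p = 4.06e-06, edgeR), which turned to 1.57 under mitochondrial scaling. That call was lost, the difference falling under the fold required, without homoharringtonine replicate 1 (-0.99) or replicate 2 (-0.94) or triptolide replicate 1 (-0.98), and with DESeq2 (-0.96), no filter on low counts (-0.895) or library sizes alone (-0.44).

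LIF was also the member that changed with the lowest dose of nilotinib. The wells of 100 nM read 48.7, 50.8 and 53.0 CPM, all above the highest DMSO well, and the change of 1.10 ± 0.15 was called (adjusted p = 4.4e-05, edgeR). At 1000 nM the wells read 40.7, 44.5 and 30.9 CPM, a change of 0.70 (adjusted p = 0.0113, edgeR, under the fold required), and at 10000 nM 114, 97.2 and 82.7 CPM, 3.97-fold the DMSO median. The group of 1000 nM was thus the lowest of the 3, and its lowest well lay within the DMSO range. Pyrazolanthrone at 100 nM gave a change of 0.60 (adjusted p = 0.0259, edgeR, under the fold required), and no dose of MK-2206 or miglitol passed.

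IL11 had the highest level per length of the members in DMSO, and also with homoharringtonine, at group means of 349, 342 and 253 TPM. DMSO wells over 10 mil lay between 15.1 and 23.5 CPM, with a median of 19.6 CPM, and DMSO replicate 10 read 43.5 CPM. Homoharringtonine wells read 413, 409 and 436 CPM at 100 nM, 449, 384 and 325 CPM at 1000 nM and 310, 301 and 239 CPM at 10000 nM, all far above DMSO. The log2 fold changes were 4.65 ± 0.11 (adjusted p = 1.65e-20), 4.44 ± 0.11 (adjusted p = 1.92e-19) and 3.89 ± 0.11 (adjusted p = 5.91e-19, all edgeR). Neither step between doses passed. With 10000 nM nilotinib IL11 read 29.0, 32.0 and 21.3 CPM, 1.38-fold the DMSO median. Replicate 3 was inside the range of the deep DMSO wells, and all 3 wells were below DMSO replicate 10. The nilotinib level of IL11 thus did not stand apart as that of CXCL8 did.

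Triptolide wells read 36.7, 56.5 and 38.3 CPM for IL11 at 100 nM, the middle value resting on 4 counts, 33.8, 30.2 and 26.3 CPM at 1000 nM and 23.1, 25.3 and 17.01 CPM at 10000 nM. The changes of 1.29 ± 0.16 (adjusted p = 1.67e-07) and 1.06 ± 0.14 (adjusted p = 3.69e-07, both edgeR) were called at the lower doses, and 0.68 at 10000 nM was under the fold required. All 3 were negative when scaled to mitochondrial mRNAs, at -0.37, -1.41 and -2.13. Without triptolide 1000 nM replicate 1 the change at that dose was 0.99, and by library sizes alone the changes at 100 nM and 1000 nM were 0.97 and 0.61, all under the fold required. Between homoharringtonine and triptolide IL11 differed by 3.28, 3.39 and 3.12 on the log2 scale (adjusted p = 3.83e-10, 2.77e-06 and 3.6e-09, edgeR). Nilotinib at 100 nM gave 32.6, 35.1 and 36.2 CPM, a change of 0.89 (adjusted p = 0.000221, edgeR, under the fold required).

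Counted over the list, 5 of the 8 members were called higher and CCL2 lower with 100 nM homoharringtonine, where 15.6% of all genes tested were called higher and 19.3% lower. At 1000 nM and 10000 nM 4 members were called higher and 1 lower, with 21.5% and 20.9% of all genes at the former dose and 23.6% and 23.4% at the latter. Triptolide gave 1 member higher and 3 lower at 100 nM (background 11.4% and 20.9%), 1 and 1 at 1000 nM (13.9% and 30.4%) and 1 lower at 10000 nM (30.2%). At 1000 nM and 10000 nM the members called lower were no larger a share of the 6 tested than the background, and under mitochondrial scaling 0 members were higher and 5, 6 and 6 lower. Nilotinib gave 1 member higher at 100 nM (background 0.702%) and none at 1000 nM (1.13% in either direction), and pyrazolanthrone gave none at 100 nM (0.923%) and 1 higher at 10000 nM (0.589%).

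No member was called with MK-2206, where 0.0054%, 0.286% and 0.711% of genes were called at the 3 doses. With pyrazolanthrone at 1000 nM and miglitol at 100 nM, 1000 nM and 10000 nM, edgeR called 0 genes of any kind (0%), while 1033, 944, 1563 and 4195 genes had an unadjusted p under 0.05 and DESeq2 called 4, 1, 9 and 1. Between doses of homoharringtonine, CXCL3 was higher and LIF lower at 1000 nM than at 100 nM (background 6.06% and 4.49%), and no member was called between 10000 nM and 1000 nM (0.845%). Between doses of triptolide LIF was higher at 1000 nM than at 100 nM (6.46%, with LIF and IL11 the only members tested), and none of 4 members tested was called between 10000 nM and 1000 nM (0.0191%). Homoharringtonine against triptolide gave 5 members higher at 100 nM (27.4%), 4 higher and 1 lower at 1000 nM (35.9% and 22.6%) and 4 higher and 2 lower at 10000 nM (37.9% and 30.2%). All comparisons with DMSO share the same 18 wells.

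The genes most like CXCL8 were sought over the 19 group means of log2(CPM + 1), among 16438 genes with at least 1 CPM in a group. They were SVEP1 (Pearson r = 0.976), LINC02605 (0.974), SGPP2 (0.970), LINC00944 (0.948) and CXCL3 (0.942), as a description over groups that share compounds and differ in depth, with no test. CXCL8 was high in only 4 of the 19 groups, the 3 of homoharringtonine and 10000 nM nilotinib, so few points set each r. SGPP2, a sphingosine-1-phosphate phosphatase, had a mean of 0.605 ± 0.268 CPM (SD, n = 18) in DMSO, 2.48 ± 0.507 CPM (SD, n = 3) with 10000 nM homoharringtonine and 6.33 ± 1.40 CPM (SD, n = 3) with 10000 nM nilotinib. LINC02605, a long noncoding RNA, had means of 0.0838, 2.45 and 2.87 CPM in the same groups. Of the other members IL6 ranked 13th with r = 0.906, IL11 716th with 0.698, LIF 4386th with 0.464 and CCL2 6182nd with 0.324. Since CXCL8 was chosen for its level with 10000 nM nilotinib, the search was repeated, after the data were examined, over the other 18 groups. None of the 5 genes remained among the 5 nearest, which were then IL1A (0.994), IRGM (0.993), LINC01447 (0.992), HTR7 (0.992) and SOX30 (0.992), among 16398 genes. IL6 then ranked 25th with 0.986, IL11 292nd with 0.945 and CXCL3 561st with 0.912, while LIF had 0.343 and CCL2 -0.63. The likeness of CXCL3 and the distance of IL11 thus depended on whether that group was counted.

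The largest changes among known regulators lay with homoharringtonine and triptolide. Of 19 known regulators of their transcription and mRNA decay, 14, 12 and 12 were called higher with homoharringtonine at the 3 doses and none lower, with a median log2 fold change of 2.24, 2.55 and 2.42 beside -0.03, -0.01 and -0.05 over all genes tested. The share of all genes called higher was 15.6%, 21.5% and 23.6%. FOS, a subunit of AP-1, went from 11.6 CPM in the deep DMSO wells (152 CPM, or 70 counts, in DMSO replicate 10) to 953 CPM at 1000 nM, a change of 6.34 over all DMSO wells and of 6.50 without DMSO replicate 10. TNFAIP3, a brake on NF-kB, changed by 5.95 and ATF3, a stress-induced transcription factor, by 5.20 at 10000 nM. With triptolide 1 was called higher and 4 lower at 100 nM, and 15 lower at each of 1000 nM and 10000 nM (20.9%, 30.4% and 30.2% of all genes were lower), among them NFKBIA, the inhibitor of NF-kB, at -7.48 with 1000 nM, and JUN at -6.10 and FOS at -5.67 with 10000 nM. Scaled to mitochondrial mRNAs, 17, 19 and 19 of them were lower with triptolide, and with 10000 nM homoharringtonine 12 were higher and 3 lower. With 10000 nM nilotinib, as values with no test, TNFAIP3 read 45.9 CPM against 6.22 CPM in the deep DMSO wells, ZC3H12A, an endonuclease that degrades IL6 mRNA, 71.8 CPM against 8.10 CPM, and NFKBIZ, a nuclear NF-kB cofactor, 51.9 CPM against 5.40 CPM.

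Other secreted factors outside the 8 members were counted in the same way. Of 26 other cytokines, 9 of 16 tested were called higher and 1 lower with 100 nM homoharringtonine, 14 of 20 higher at 1000 nM and 12 of 19 higher at 10000 nM, where 15.6%, 21.5% and 23.6% of all genes were called higher. With 1000 nM nilotinib 15 of the 26 were tested. Genes that passed the filter on low counts only through homoharringtonine wells could hardly be called other than higher, so these counts depend in part on the filter. The largest changes were in TNF (7.74 at 10000 nM, from 0.0140 to 3.50 CPM), IL23A (5.99 at 1000 nM) and IL1A (5.15 at 1000 nM), all proinflammatory cytokines. Triptolide gave 5 higher and 3 lower of 16 at 100 nM, 5 and 3 of 15 at 1000 nM and 5 and 4 of 15 at 10000 nM. Over all genes 11.4%, 13.9% and 16.2% were called higher and 20.9%, 30.4% and 30.2% lower, so the share of these cytokines called lower was under that of all genes. Among those called were IL1A at -3.32, TSLP at -3 and CTF1, another cytokine of the IL6 family, at 2.52. Under mitochondrial scaling none was higher and 11 were lower at each dose, CTF1 turning to -0.28. Other chemokines, 18 in the list, were split with homoharringtonine: 3 higher and 3 lower of 8 tested, 3 and 4 of 9, and 4 and 5 of 10, beside 15.6% and 19.3%, 21.5% and 20.9%, and 23.6% and 23.4% of all genes. With 1000 nM nilotinib 7 of the 18 were tested, so some passed the filter on low counts only through homoharringtonine wells. CXCL11 changed by 4.13, CCL20 by 3.08 and CXCL14 by -3.03 at 10000 nM homoharringtonine. CXCL11 was not called at the lower doses.

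Among the other chemokines with triptolide, 2 were called higher and 3 lower of 7 tested at 100 nM, 2 and 1 of 8 at 1000 nM and 1 and 1 of 7 at 10000 nM, and at the higher doses those called lower were a smaller share than among all genes (30.4% and 30.2%). CCL3 changed by -3.20 and CXCL12 by 1.70 at 1000 nM, and CXCL14 by 1.69 at 10000 nM, but CXCL12 turned to -0.62 and CXCL14 to -1.10 under mitochondrial scaling, and CXCL12 was not called without the libraries under 10 mil (adjusted p = 0.0507, edgeR). CCL20, which attracts lymphocytes and dendritic cells, and CCL3, a macrophage inflammatory protein, were called higher with 1000 nM nilotinib, by 2.09 (adjusted p = 0.00563) and 1.75 (adjusted p = 0.000248, both edgeR), a dose at which no member and 0.745% of all genes were called higher. DESeq2 gave CCL20 no adjusted p there. At 10000 nM nilotinib CCL20 read 45.3 CPM against 0.224 CPM in the deep DMSO wells, CCL3 34.2 CPM against 0.487 CPM and CSF2 11.3 CPM against 0.290 CPM, with no test. Pyrazolanthrone at 10000 nM gave 1.86 for CCL20 and 1.12 for IL1A, and MK-2206 at 10000 nM gave 1.57 for CCL3, each the only gene of its list called there (0.589% and 0.56% of all genes were called higher). DESeq2 gave CCL20 and IL1A no adjusted p, and under mitochondrial scaling IL1A (0.83, adjusted p = 0.122) and CCL3 (1.36, adjusted p = 0.0681, both edgeR) were not called. At 100 nM nilotinib CSF2 (1.495) and the AP-1 subunit FOSL1 (1.25) were called higher, beside LIF (0.702% of all genes). FOSL1 was also called higher with 100 nM pyrazolanthrone, the only regulator called there (0.923% of all genes in either direction).

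On the receiving side, 3 of 6 receptors tested were called higher and 1 lower with 100 nM homoharringtonine, 2 higher at 1000 nM, and 2 higher and 1 lower at 10000 nM, beside 15.6%, 21.5% and 23.6% of all genes called higher and 19.3%, 20.9% and 23.4% lower. IL6ST, the subunit shared by the IL6, LIF and IL11 receptors, went from 126 CPM in the deep DMSO wells to 547 CPM at 10000 nM, a change of 2.11. CCR4 changed by 7.49 at that dose (7.45 ± 0.86, SE, with DESeq2). With 1000 nM nilotinib 5 receptors were tested, so the number tested depended on the wells compared. A receptor that passed the filter on low counts only through homoharringtonine wells could hardly be called other than higher. IL6R, the IL6-binding chain, was called higher at 100 nM (62.1 CPM against 11.9 CPM in the deep DMSO wells) and lower at 10000 nM (-1.54). Triptolide gave 1, 1 and 2 receptors higher of 5 tested (11.4%, 13.9% and 16.2% of all genes), with IL11RA at 1.32 and ACKR1 at 1.16 at 10000 nM, which turned to -1.49 and -1.62 under mitochondrial scaling and were 0.79 and 0.62 by library sizes alone. Of 12 JAK-STAT genes, 1, 1 and 3 were called higher and 1 lower at each dose with homoharringtonine. The 3 higher at 10000 nM were near the share of all genes (23.6%), and the other counts were under the shares of their comparisons. CISH, a feedback inhibitor, changed by 2.29, JAK2 by 1.47 and SOCS2, another feedback inhibitor, by -1.85. With triptolide 0, 1 and 2 were higher and 2, 5 and 5 lower (20.9%, 30.4% and 30.2% of all genes were lower), with SOCS2 and SOCS3 both at -5.31 and SOCS1 without a count at 1000 nM.

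Markers of other cell types were read in the same wells. The summed level of 7 leukocyte markers was 0.925 to 2.23 CPM in the 17 deep DMSO wells (8.70 CPM in DMSO replicate 10, which is 4 counts) and 14.8 to 18.7, 19.2 to 25.9 and 24.7 to 27.5 CPM with homoharringtonine at the 3 doses. Nearly all of it was ITGAM (5.90, 16.7 and 21.5 CPM against 0.424 CPM in the deep DMSO wells) and CSF1R (9.96, 4.73 and 3.96 CPM against 0.964 CPM). Of 3, 3 and 4 leukocyte markers tested, 2, 3 and 4 were called higher with homoharringtonine, beside 15.6%, 21.5% and 23.6% of all genes. CD14 was among them at 1000 nM (0.417 CPM) and 10000 nM (0.442 CPM against 0.218 CPM in the deep DMSO wells). PTPRC, which marks leukocytes at large, had means of 0.135, 0.174 and 0.319 CPM against 0.0953 CPM in the deep DMSO wells and was called higher at 10000 nM. It was not among the 3 tested at 1000 nM. PTPRC passed the filter on low counts only through wells in which it was higher, those of 10000 nM homoharringtonine and of 100 nM and 10000 nM triptolide. Its calls in those groups are thus not independent of the filter. CD3E had no count in any homoharringtonine well, and MS4A1, a B cell marker, had means of at most 0.0276 CPM. With 100 nM triptolide all 4 leukocyte markers tested (PTPRC, ITGAM, CD14 and CSF1R) were called higher, beside 11.4% of all genes. The sums were 5.99 and 6.41 CPM in the 2 deep wells. CD14 read 0.285 CPM in 1 of them and 1.85 CPM in the other, against 0.0987 to 0.408 CPM in the deep DMSO wells. At 1000 nM CSF1R was called higher and CD14 lower of 3 tested (13.9% and 30.4% of all genes). At 10000 nM PTPRC was called higher (0.411 CPM) of 4 tested (16.2%). With 10000 nM nilotinib the leukocyte sum was 3.36 to 3.76 CPM, above the deep DMSO wells. The sum of 3 endothelial markers, nearly all VWF, was 11.01 to 11.9 CPM with 100 nM homoharringtonine beside a DMSO median of 1.76 CPM. It was 4.32 to 6.66 CPM at 1000 nM and 4.34 to 4.60 CPM at 10000 nM. VWF alone of the 3 was called higher at each dose (15.6%, 21.5% and 23.6% of all genes). PECAM1 was called higher with 100 nM triptolide (11.4%), and CDH5 with MK-2206 at 1000 nM (0.286% in either direction) and 10000 nM (0.56%). The mesenchymal sum was 2558 to 2911, 1746 to 2015 and 1475 to 1520 CPM with homoharringtonine, below all DMSO wells, and 8148 to 10300 CPM with triptolide, above them. Of 6, 6 and 7 tested, 4, 5 and 4 were called lower with homoharringtonine and 0 higher (19.3%, 20.9% and 23.4% of all genes were lower). Of 7 tested with triptolide, 3, 3 and 4 were called higher, COL1A1 and SPARC at each dose (11.4%, 13.9% and 16.2%). Against the sum, RUNX2 was called lower with triptolide at 100 nM and 1000 nM (20.9% and 30.4%). The sum of 5 epithelial markers, mostly KRT18, was 462 to 670 CPM in DMSO and 1062 to 1575 CPM with homoharringtonine. Of 4 tested, KRT18 and EPCAM were called higher and CDH1 lower at each dose, where 19.3%, 20.9% and 23.4% of all genes were lower. With triptolide the epithelial sum was 470 to 708 CPM. KRT8 was called higher at 100 nM and CDH1, EPCAM and KRT8 at 1000 nM and 10000 nM (11.4%, 13.9% and 16.2% of all genes). These triptolide values are relative to the bulk of the library. The markers were not read under mitochondrial scaling, which moved the median of all genes by -1.65, -2.47 and -2.75 at the 3 doses. The part of these markers in the members' values was not tested.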

How the data were processed

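Population RNA-seq of 72 U2OS wells was used. The authors ran RSEM on TruSeq libraries (GRCh38) and deposited expected counts, estimates of reads per gene with no normalization. TPM values, scaled to gene length, were deposited beside them, and the deposited FPKM values were not used. The submitters' processing notes also name HTSeq and DESeq2, with versions not given in the sources used here. The 54 compound wells and 18 DMSO wells were grouped by their labels, whose middle dose of 1000 nM differs from the 1 nM of a methods passage. GENCODE 44 gave a symbol for 56104 of the 60371 identifiers.

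Expected counts were rounded and tested with edgeR 4.0.16 in R 4.3.3 (TMM, filterByExpr, quasi-likelihood test, Benjamini-Hochberg adjustment over all genes tested), as the wells of a group and DMSO, or of 2 groups. A call needed an adjusted p under 0.05 together with a log2 change past 1 in either direction. CPM used the sum of each library's expected counts. Deep wells are those over 10 mil. Alternatives were DESeq2 1.42.0, no filter, library sizes only, scaling to 13 mitochondrial mRNAs, leaving out shallow libraries or each compound well, and a replicate block. Against DMSO the replicate block kept only DMSO replicates 1 to 3, so it changed the control wells too. The scripts were tested on simulated data. Intervals of summed counts and floors cover counting error only. Promoters came from RefSeq GRCh38.p14 and were searched in Python 3.11.15.

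The members and gene lists were chosen with earlier results of these data known. Named genes were all 8 members, up to 3 called genes per list and compound with the largest change at 1000 nM or 10000 nM (10000 nM nilotinib left out), and the 5 genes most like CXCL8. Genes named at other doses or without a call, and cell type markers, fall outside this rule and were named after their values were seen.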

Additional observations from a re-analysis of the deposited data

How the results depend on the processing

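Counts of members called moved by more than 1.5 times in 9 of 24 comparisons. Triptolide at 1000 nM had 2, but 1 with no filter, with library sizes only, with the replicate block and at the lowest when a well was left out (1 to 2), and 6 under mitochondrial scaling. Triptolide at 10000 nM had 1, but 2 with DESeq2, 6 under mitochondrial scaling and 0 to 1 with a well left out. Nilotinib at 100 nM had 1, but 2 under mitochondrial scaling and 0 with the replicate block, where LIF changed by 0.82 (adjusted p = 0.869, edgeR). Against DMSO that block kept only DMSO replicates 1 to 3, so a lost call there may come from fewer control wells as well as from blocking. Nilotinib at 1000 nM had 0, but 1 without libraries under 10 mil and 0 to 1 with a well left out. Pyrazolanthrone at 10000 nM had 1, but 0 with DESeq2, no filter, mitochondrial scaling or any well left out (0 to 0). Homoharringtonine 1000 nM against 100 nM had 2, but 1 under mitochondrial scaling or the replicate block and 1 to 2 with a well left out, and 10000 nM against 1000 nM had 0 to 1. Triptolide 1000 nM against 100 nM had 1, but 2 under mitochondrial scaling and 1 to 2 with a well left out. Homoharringtonine against triptolide at 100 nM had 5, but 3 with DESeq2, which gave no adjusted p for CXCL3 and IL6. Of 234 such counts 27 moved past that limit, 18 changed within it (6 further comparisons had such changes alone, triptolide at 100 nM and homoharringtonine against triptolide at 1000 nM and 10000 nM among them) and 189 were equal.

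Mitochondrial scaling turned the sign with triptolide of IL11 at 100 nM (-0.37), of CXCL8 (-2.27), CCL2 (-2.48), IL6 (-2.39), LIF (-1.51) and IL11 (-1.41) at 1000 nM, and of CXCL8 (-2.29), CCL2 (-2.69), LIF (-1.92) and IL11 (-2.13) at 10000 nM. It also turned homoharringtonine against triptolide for CCL2 (0.35) and LIF (1.94) at 1000 nM and for CCL2 (0.006) and LIF (1.57) at 10000 nM. It moved the median of all genes with triptolide by -1.65, -2.47 and -2.75, and library sizes by -0.34, -0.46 and -0.53. The cause was not tested. Deviations of the compound wells were compared with those of DMSO replicates 1 to 3 only. Same-numbered wells had a mean correlation of -0.06 (54 pairs, -0.75 to 0.66, 20 above 0.1). The other 108 pairs had 0.03 (-0.70 to 0.74, 49 above 0.1). A pairing with the remaining DMSO wells could not be seen this way. CXCL1 and CXCL2 were called only with no filter (CXCL2 at 100 nM, both at 1000 nM and 10000 nM homoharringtonine). Without the minimum level, 3 of the 5 genes most like CXCL8 stayed among the 5, 4 with a pseudocount of 0.1, and 0 with the group of 10000 nM nilotinib left out, a choice made after seeing the data. Depth limits what can be said of CXCL1, CXCL2 and IL6, and of CXCL3 with triptolide.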
